A study of Mus musculus with 6 samples.

Results

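The adhesion machinery of mouse embryonic stem cells was followed through 10 messages, 6 for membrane receptors (Cdh1, Epcam, Itgb1, Itga6, Itgav and Dag1) and 4 for cytosolic catenins (Ctnnb1, Ctnna1, Ctnnd1 and Jup). They were chosen by name from 51912 genes matched by identifier, and all 10 passed the low-count filter that left 13231 genes to test. The cells were of the E14 line of mouse embryonic stem cells and grew on gelatin in medium with serum and leukemia inhibitory factor. Both groups shared a 3 min treatment with 100 µg/mL cycloheximide, which holds ribosomes on their messages, and both came from trypsinized cells whose lysate was spun through a sucrose cushion. The 3 pellet libraries are RNA taken directly from the resuspended cushion pellet, and the 3 eluate libraries are RNA from the remainder of that material after chromatography on cysteine-charged resin, the added step of the ribosome purification named RAPIDASH. The design asks which poly(A) messages are more or less abundant after this step than after the cushion. A single line was used, with no genetic difference between groups, and the labels do not say that the replicates were separate cultures, so the p-values rest on a spread that may be technical. Nor do they say that a shared replicate number marks the same cushion pellet. The main test was therefore unpaired, with a replicate block as an alternative.

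E-cadherin, encoded by Cdh1, joins neighbouring cells in adherens junctions. Its cytoplasmic tail binds beta-catenin (Ctnnb1) or plakoglobin (Jup), which bind alpha-catenin (Ctnna1) and through it actin, while the delta-catenin encoded by Ctnnd1 holds the cadherin at the membrane. Beta-catenin is also the transcriptional effector of Wnt signalling and supports self-renewal of mouse embryonic stem cells. Integrins and dystroglycan (Dag1) bind the basement membrane, and Epcam is an epithelial adhesion molecule abundant in pluripotent cells. Receptor messages are translated at the endoplasmic reticulum and catenin messages on cytosolic ribosomes.

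The paralogs Ctnnb1 and Jup are shown first because they encode related proteins with different bases and moved in opposite directions. The rise of Jup was not called in every setting, as given below, and a part of base composition in it was not tested. Their coding sequences encode 781 and 745 residues, of which 512 of 743 aligned positions (68.9%) are identical. At 281 of these 512 positions the codons differ. The last base of the codon is G or C at 50.2% of the 512 positions in Ctnnb1 and at 80.3% in Jup. The window of 30 aligned codons below has 27 identical residues and lies closest to these overall shares among 274 windows with at least 25 identical residues. Capitals mark the 18 bases of 90 that differ between the paralogs; 15 of 30 last codon bases are G or C in Ctnnb1 (coding bases 727 to 816) and 24 of 30 in Jup (coding bases 700 to 789). The sequences are from GENCODE mouse release 21, from transcripts of the same length as in the deposited files.
Ctnnb1: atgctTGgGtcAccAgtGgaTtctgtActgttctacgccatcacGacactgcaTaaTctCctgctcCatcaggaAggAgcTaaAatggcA
Jup: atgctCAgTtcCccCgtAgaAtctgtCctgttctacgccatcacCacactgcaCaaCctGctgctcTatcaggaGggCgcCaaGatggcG

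A second set shows Itgb1 and Itgav beside Epcam and Dag1, which were not called. Among the member integrin subunits, Itgb1 and Itgav have the lowest GC content over the whole transcript. Each is the window of 90 coding bases, in frame, whose GC content is nearest to that of the whole coding sequence. Capitals mark last codon bases that are G or C, of 30 in each window. Itgb1 has 8 of them, Itgav 12, Dag1 15 and Epcam 16. The windows were chosen by overall GC, so these counts need not match the whole gene. Over the whole coding sequence the last codon base is G or C at 41.1% in Itgb1, 52.3% in Itgav, 57.2% in Dag1 and 63.5% in Epcam.
Itgb1: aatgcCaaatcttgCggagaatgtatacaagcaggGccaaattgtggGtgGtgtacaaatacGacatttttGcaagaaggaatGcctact
Itgav: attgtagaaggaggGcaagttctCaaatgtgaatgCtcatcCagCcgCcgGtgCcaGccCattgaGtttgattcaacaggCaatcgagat
Dag1: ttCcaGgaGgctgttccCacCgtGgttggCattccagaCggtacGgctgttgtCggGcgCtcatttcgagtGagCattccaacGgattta
Epcam: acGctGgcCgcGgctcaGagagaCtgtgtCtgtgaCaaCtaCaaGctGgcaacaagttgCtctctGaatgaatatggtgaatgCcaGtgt

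The libraries held 7.84e+06 to 1.16e+07 estimated read counts. Of the genes tested, 28.2% were lower and 24.5% higher in eluate than in pellet with adjusted p below 0.05 (edgeR's quasi-likelihood test), 52.7% in all, with a median log2 fold change of 0.0035. Every eluate was below every pellet for 31.2% of genes and above every pellet for 29.1%. The 8 embryonic stem cell markers checked, Pou5f1, Nanog and Sox2 among them, were all tested and summed to 8800 to 9361 CPM (counts scaled to library size) in the pellets and 11014 to 11176 in the eluates. Taken singly, 2 of them were lower, 3 higher and 3 not called, with a median log2 fold change of -0.067. The 8 fibroblast markers summed to 11.6 to 15.4 CPM in the pellets and 16.7 to 23.2 in the eluates, with Lum and Postn at 0. Endoderm markers (5 genes) summed to 6.54 to 8.62 and 8.76 to 12.7 CPM, mesoderm markers (4 genes) to 7.02 to 8.73 and 8.58 to 8.83, and neural ectoderm markers (4 genes) to 17.3 to 18.4 and 18.0 to 19.5. The part of these differences in the results was not tested. Pellet 1 lay nearer to the eluates than the other pellets, with a chi-square per gene of 33.2 to 36.04 against each eluate, where pellets 2 and 3 had 66.2 to 82.7.

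Of the 10 messages, 7 fell, 1 rose and 2 were not called. The receptors had 4 lower, 0 higher and 2 not called, with a median log2 fold change of -0.69, and the catenins had 3 lower and 1 higher, with a median of -0.48. A count of 7 in 10 lower stands beside 28.2% of all genes tested, and no set test was made. The groups did not overlap for 8 of the 10, beside 60.3% of all genes. The members were chosen with earlier results of these data known, so both counts are descriptions only. The receptors spanned -1.33 to 0.032 and the catenins -0.54 to 0.44, so the classes overlapped, and a difference between the classes was not tested. Values below are normalized CPM per library (CPM after TMM scaling), and each change is a log2 fold change, eluate relative to pellet, ± SE. CPM is a share of a library, so less of a message and more of other RNA cannot be told apart.

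**Figure D1:**
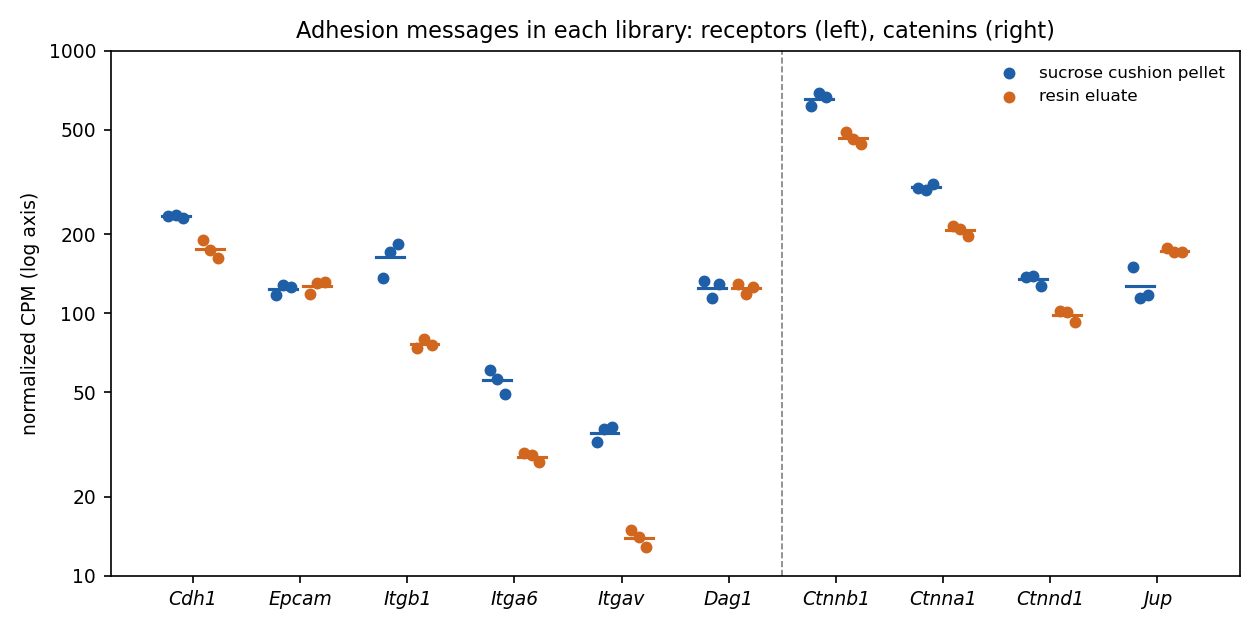
Normalized CPM (log axis) of each message in the 3 pellets (blue) and 3 eluates (orange), with bars at the group means. The 3 integrin subunits have the widest gaps between the groups, Epcam and Dag1 overlap, and Jup alone has every eluate above every pellet.

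The integrin subunits had the lowest changes among the receptors. Itgb1 encodes the beta 1 subunit, the partner of many alpha subunits. The pellets, in replicate order, held 136, 171 and 183 CPM and the eluates 73.6, 79.9 and 76.0. The highest eluate lay far below the lowest pellet, pellet 1, and the change was -1.09 ± 0.097 (adjusted p = 7.06e-07, edgeR). Itga6, a laminin-binding alpha subunit that pairs with beta 1, was at 60.6, 56.4 and 49.3 CPM in the pellets and at 29.3, 28.8 and 27.0 in the eluates, again without overlap. Its change was -0.97 ± 0.097 (adjusted p = 1.01e-06, edgeR). Itgav, the alpha-v subunit of receptors for vitronectin and fibronectin, was the rarest member at 32.2, 36.1 and 37.0 CPM in the pellets and 15.0, 14.01 and 12.8 in the eluates. Its change was -1.33 ± 0.11 (adjusted p = 2.99e-07, edgeR), and 4.16% of the genes tested had a lower value still. It moved with the processing, to -0.72 with the GC trend removed, to -0.46 with the GC and length trend removed, where Itga6 (-0.68) and Itgb1 (-0.56) were lower, and to -0.40, not called, from its most abundant transcript alone (edgeR, adjusted p = 0.311). The eluates held 0.398 times the pellet level of Itgav, 0.468 times that of Itgb1 and 0.512 times that of Itga6.

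Cdh1 also fell, and its difference from the integrin subunits was not tested. It was at 235, 236 and 231 CPM in the pellets and at 191, 174 and 162 in the eluates, with a change of -0.41 ± 0.070 (adjusted p = 0.000149, edgeR). All eluates were below all pellets, and the eluates differed among themselves more (SD 14.4 CPM) than the pellets did (SD 2.72 CPM). Epcam was at 117, 129 and 126 CPM in the pellets and at 119, 129.8 and 132 in the eluates. The groups overlapped, and the change was 0.032 ± 0.072 (adjusted p = 0.740, edgeR), with a limma voom 95% interval of -0.13 to 0.19. Dag1, the dystroglycan precursor that is cut into a laminin-binding and a transmembrane chain, was at 132, 114 and 129 CPM in the pellets and at 129, 118 and 126 in the eluates. These groups overlapped as well, at -0.010 ± 0.076 (adjusted p = 0.922, edgeR; limma voom 95% interval -0.17 to 0.16).

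Of the catenins, 3 fell and Jup rose. Ctnnb1, the most abundant of the 10 messages, was at 617, 689 and 667 CPM in the pellets and at 489.65, 461 and 442 in the eluates. No eluate reached the lowest pellet, and the change was -0.50 ± 0.068 (adjusted p = 1.68e-05, edgeR). Ctnna1, the actin-linking alpha-catenin, was at 300.0, 295 and 311 CPM in the pellets and at 215, 209.8 and 197 in the eluates. It also fell without overlap, by 0.54 on the log2 scale (SE 0.064, adjusted p = 5.02e-06, edgeR). Ctnnd1, the cadherin-stabilizing delta-catenin, was at 138, 138 and 127 CPM in the pellets and at 102, 101 and 92.4 in the eluates. Its groups were separate too, at -0.45 ± 0.073 (adjusted p = 9.07e-05, edgeR). It was not called with the GC and length trend removed, at -0.097 (edgeR, adjusted p = 0.236), or from its most abundant transcript alone, at -0.52 (adjusted p = 0.0619). Jup, plakoglobin, which serves both adherens junctions and desmosomes, was at 150.1, 115 and 117 CPM in the pellets and at 177, 171 and 172 in the eluates. Every eluate was above every pellet, with pellet 1 nearest to them, and the change was 0.44 ± 0.091 (adjusted p = 0.000894, edgeR). In TPM pellet 1, at 52.3, lay within the range of the eluates, 50.3 to 53.4. On the log2(TPM + 1) scale, where the median of all genes was -0.056, Jup was at 0.32 and not called (limma, adjusted p = 0.0639); after the trends in GC and length were taken out of each library it was at 0.12 (edgeR, adjusted p = 0.114).

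**Figure D2:**
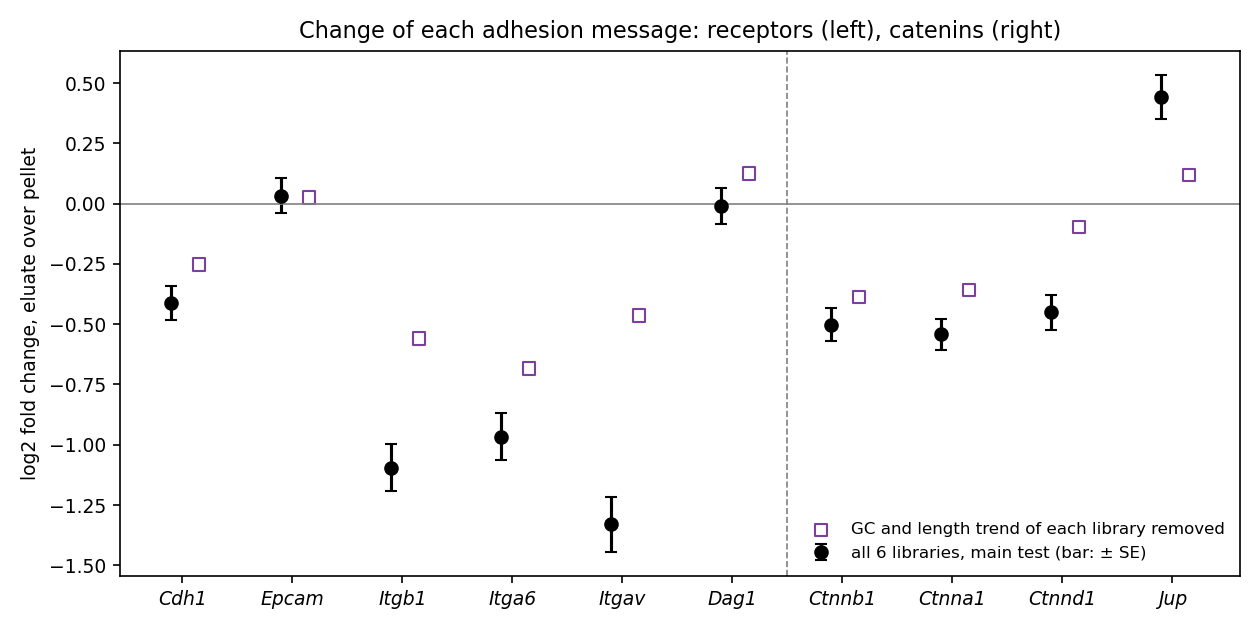
Log2 fold change of eluate over pellet for each message, with ± SE (black), and the value after removal of the GC and length trend (open squares). The 3 integrin subunits lie between -1.33 and -0.97 before and between -0.68 and -0.46 after, and Jup moves from 0.44 to 0.12.

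The deposited results table of the authors lists 8 of the 10 genes, all in the directions found here. In the authors' deposited table the log2 fold changes are -1.03 for Itgb1, -0.999 for Itga6, -1.31 for Itgav, -0.42 for Cdh1, -0.50 for Ctnnb1, -0.53 for Ctnna1, -0.45 for Ctnnd1 and 0.41 for Jup. Epcam and Dag1 are not among its genes, all of which have an adjusted p under 0.05. For those 8 genes the mean estimated count here was 0.960 to 1.03 times the mean normalized count in the authors' deposited table.

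Levels between genes were compared as TPM, which divides by transcript length. In the pellets Ctnnb1 led at 193 ± 4.66 TPM (SD, n = 3), above Ctnna1 at 85.3 ± 7.55 and Epcam at 84.7 ± 2.93, whose ranges overlapped. Cdh1 followed at 54.6 ± 4.56, Itgb1 at 48.5 ± 4.06 and Jup at 41.9 ± 9.07, and each of these overlapped with its neighbour. Ctnnd1 at 26.3 ± 2.71 and Dag1 at 23.3 ± 3.42 overlapped too, and Itga6 at 14.3 ± 2.49 and Itgav at 5.85 ± 0.211 lay below all others. In the eluates the order of the upper messages was different, and Dag1 lay above Ctnnd1 without overlap. Ctnnb1 was at 128 ± 7.68 TPM, Epcam at 82.7 ± 4.35, Ctnna1 at 55.4 ± 2.69, Jup at 51.7 ± 1.57 and Cdh1 at 38.4 ± 3.44. In the eluates Epcam no longer overlapped with Ctnna1, Ctnna1 overlapped with Jup, and every eluate held more Jup than Cdh1, per length. Itgb1 at 22.3 ± 0.481 and Dag1 at 21.5 ± 1.34 overlapped, followed by Ctnnd1 at 18.0 ± 0.890, Itga6 at 6.94 ± 0.300 and Itgav at 2.22 ± 0.187.

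Ratios of TPM within a library do not depend on scaling between libraries. The ratio of Ctnnb1 to Jup was 3.79, 5.28 and 5.11 in the pellets, by replicate, and 2.57, 2.49 and 2.39 in the eluates. All eluates were below all pellets, with a difference of -0.91 on the log2 scale (two-sided exact permutation p = 0.1, which is as low as 3 and 3 libraries can give). The pair was singled out because its members moved in opposite directions in these same data, so the test adds no support. Ratios to Ctnnb1 of the cadherin and of the other catenins that fell overlapped between the groups. Cdh1 to Ctnnb1 was 0.302, 0.272 and 0.275 in the pellets and 0.307, 0.298 and 0.289 in the eluates. Ctnna1 to Ctnnb1 was 0.468, 0.410 and 0.448 in the pellets and 0.425, 0.438 and 0.431 in the eluates. Ctnnd1 to Ctnnb1 had means of 0.136 ± 0.011 and 0.140 ± 0.0028 (SD, n = 3 each). Itgb1 to Itga6 overlapped as well, at 3.49 ± 0.840 and 3.22 ± 0.186, while Itgb1 to Itgav was higher in every eluate, at 8.30 ± 0.642 in the pellets and 10.1 ± 0.972 in the eluates. Epcam to Cdh1 was 1.47, 1.597 and 1.601 in the pellets and 1.85, 2.22 and 2.45 in the eluates, higher in every eluate. Among laminin receptors, Dag1 to Itgb1 went from 0.484 ± 0.095 in the pellets to 0.964 ± 0.079 in the eluates without overlap.

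**Figure D3:**
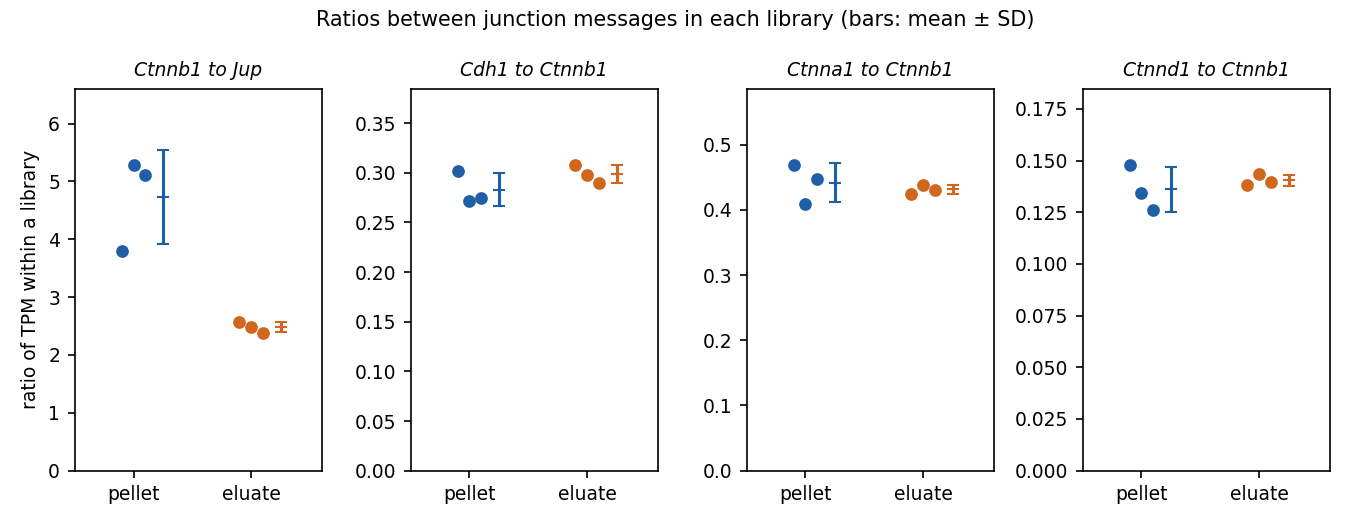
Ratio of TPM within each library for pairs of junction messages, with the mean ± SD of 3 libraries beside the points and axes starting at 0. Ctnnb1 to Jup is 3.79 to 5.28 in the pellets and 2.39 to 2.57 in the eluates, and the other ratios overlap between groups.

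The changes followed GC content among the 10 messages. Ordered by the GC content of the most abundant transcript, Itgav (43.5%), Itgb1 (44.8%) and Itga6 (48.5%) came first and had the lowest changes, and Dag1 (52.8%) and Jup (58.8%) came last. Ctnnd1, Ctnna1, Ctnnb1 and Cdh1 lay between 48.9% and 50.7% in GC and between -0.54 and -0.41 in change. Epcam, at 49.3% GC, stood apart from these neighbours at 0.032, and with 1745 nt its transcript is the shortest of the 10, the others having 3205 to 7054 nt. Spearman's rho between change and GC was 0.82 over the 10 messages and 0.71 over the 13231 genes, and -0.43 and -0.42 for length. Without Epcam the values over the members were 0.95 for GC and -0.23 for length. The points share libraries, and GC and length were not separated in these values, so these are descriptions.

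The genes tested were divided into 10 equal classes by GC. In the class that holds Itgav and Itgb1 the median change of the other genes was -0.56, and 9.30% and 18.0% of them were lower than these members. Itga6, in a class with a median of -0.20, had 7.34% of that class below it, and Ctnnd1, in the same class, 29.0%. Ctnna1, Ctnnb1 and Cdh1 shared a class with a median of -0.061, of which 13.7%, 15.2% and 19.9% were lower. Epcam belonged to that same class, and 59.5% of it was lower than Epcam. Dag1, in a class with a median of 0.086, had 39.9% of it below. Jup, in the GC-richest class, was near the median of 0.49 there. After a GC and length trend was fitted and taken out per library, which left 36% of all genes called, the changes were -0.68 for Itga6, -0.56 for Itgb1, -0.46 for Itgav, -0.39 for Ctnnb1, -0.36 for Ctnna1 and -0.25 for Cdh1, all still called. Ctnnd1, Jup, Epcam at 0.025 and Dag1 at 0.13 were not called there. With the GC trend alone taken out, 7 members were lower and 0 higher. Of the 13231 genes tested, 2476 were lower and 2927 higher in that setting, 40.8% in all. Whether base composition or length accounts for any member's change was not tested.

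**Figure D4:**
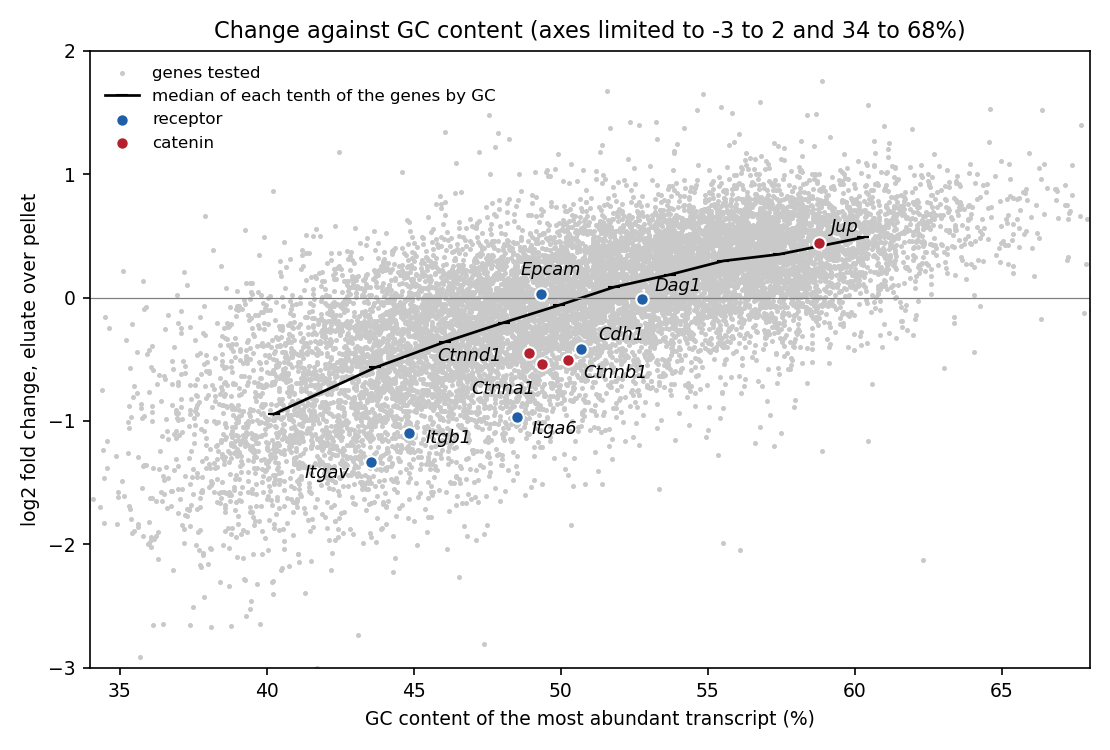
Log2 fold change against GC content for the genes tested (grey; some lie outside the axes), the median of each GC class (black line), and the receptors (blue) and catenins (red). The integrin subunits, Cdh1, Dag1, Ctnna1, Ctnnb1 and Ctnnd1 lie below the line, Epcam lies above it and Jup near it.

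Some members were counted from several transcripts. Cdh1, Itgb1, Ctnna1, Ctnnb1 and Jup took all their counts from 1 transcript each. Itga6 was divided between 2 transcripts, and the less abundant took 23.8%, 20.3% and 35.4% of the gene's counts in the pellets and 17.8%, 18.1% and 12.3% in the eluates. Of the 2 Itgav transcripts, the less abundant over all libraries took 55.5%, 61.9% and 53.4% of the counts in the pellets and 51.9% in eluate 2, and was listed at 0 in eluates 1 and 3. Ctnnd1 was spread over 24 listed transcripts, of which the most abundant held 41.8%. Near-identical transcripts exchange reads in such estimates, so shares within a gene are uncertain. The changes of Itgav and Ctnnd1 from the most abundant transcript alone depend on such shares. For Itgav that transcript took 44.5%, 38.1% and 46.6% of the gene's counts in the pellets and 100% in eluates 1 and 3. Reads shared with other genes were looked for as identical stretches of 31 bases. Ctnnd1 shares 66.5% of its stretches with other genes, nearly all with Gm28635, which was listed at 0 in all libraries. Itga6 shares 6.75% with Gm29397, which had 1 count in 1 library, and the other 8 messages share at most 0.409%. Ctnnb1 and Jup share 0 such stretches.

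Other adhesion genes moved both ways. Of 140 listed genes without repeats, 99 were tested, and 28 fell and 22 rose. The counts for each list stand beside 28.2% lower and 24.5% higher over all genes. Those with the GC and length trend removed stand beside 16.4% lower and 19.6% higher. No list was tested as a set, and the lists were chosen with earlier results of these data known. The list of other catenins and cytoplasmic junction partners had 8 lower, 1 higher and 4 not called of 13 tested (median -0.52). Afdn, afadin, which ties nectins to actin, fell by 1.03 on the log2 scale (SE 0.074, adjusted p = 8.00e-08, edgeR), the plakophilin Pkp4, the most abundant there, fell by 0.22, and the plakophilin Pkp3 rose by 0.60. With the GC and length trend removed this list had 6 lower and 0 higher. Afdn was at -0.53 and called there, and Pkp3 and Pkp4 were not.

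Among other cadherins, nectins and junctional adhesion molecules, 3 fell, 2 rose and 5 were not called. The nectins Nectin3 and Nectin2, which pair across junctions, went opposite ways at -0.81 ± 0.11 and 0.69 ± 0.075, and their transcripts have GC contents of 42.7% and 61.6%. Jam2 fell by 0.21. With the trend removed this list had 0 lower and 2 higher: Nectin3 was at -0.17 (edgeR, adjusted p = 0.119) and Jam2 at -0.0067 (adjusted p = 0.950), neither called, and Nectin2 was at 0.18 and called. Of 13 other integrin subunits tested, 1 fell and 1 rose. Itga4, a rare message with means of 1.55 CPM in the pellets and 0.345 in the eluates, was at -2.14 ± 0.48. Itgb4, the partner of Itga6 in hemidesmosomes, was at 0.50 ± 0.17 (adjusted p = 0.0199, edgeR), and the abundant Itga5, the fibronectin receptor subunit, was at 0.20 ± 0.085 (adjusted p = 0.0637, edgeR). With the trend removed the list of other integrin subunits had 0 lower and 0 higher, so neither Itga4 nor Itgb4 was called.

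Of 19 focal adhesion adaptors and kinases tested, 5 fell and 7 rose, and with the trend removed 5 fell and 4 rose. Fermt2, a kindlin that activates integrins, was at -0.71 ± 0.077, the parvin Parvb at 0.68 ± 0.088, and the actin crosslinker Actn4 at -0.37 ± 0.076. Of 18 genes for turnover or transcription partners of beta-catenin, 5 fell and 9 rose. Csnk1a1, the kinase that primes beta-catenin for degradation, was at -0.56 ± 0.071 and Gsk3a, a kinase of the same complex, at 0.72 ± 0.072. With the trend removed 2 fell and 10 rose.

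Of 10 desmosomal and tight junction membrane genes tested, 2 fell and 2 rose, and with the trend removed 2 fell and 1 rose. The desmosomal cadherin Dsg2 was at -1.28 ± 0.15 and the claudin Cldn4 at 0.40 ± 0.097, and Cldn4 was at 0.013 and not called with the trend removed. Around dystroglycan, 4 of 16 genes tested fell and 0 rose. Utrn, utrophin, which links dystroglycan to actin, was at -0.87 ± 0.079, and the glycosyltransferase gene B4gat1 at 0.35 ± 0.16 (adjusted p = 0.0730, edgeR). With the trend removed the counts were 4 lower and 2 higher.

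**Figure D5:**
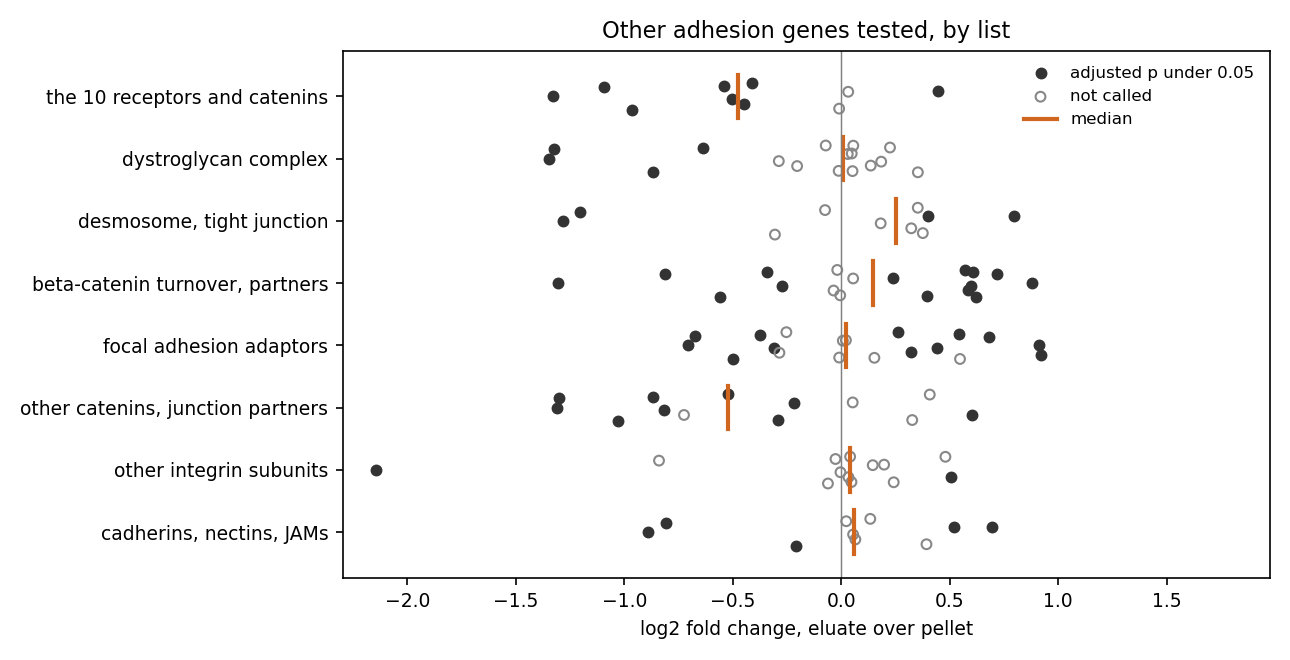
Log2 fold change of each tested gene in the 7 lists of other adhesion genes and in the 10 receptors and catenins; filled points have an adjusted p under 0.05 and orange bars are medians. The medians lie between -0.52 and 0.25, with the list of other catenins and junction partners and the 10 members lowest.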

How the data were processed

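Poly(A) RNA was measured in 6 libraries, grouped by sample title. Salmon 1.10.3, STAR 2.7.11b, DESeq2 1.44.0, cutadapt 4.7 and build GRCm39 are named, without roles, per the submitters' processing notes; an annotation release was not given in the sources used here. Deposited files hold, per the file headers, estimated counts, TPM, lengths and effective lengths per transcript. The authors' deposited table holds mean normalized counts (a signal), log2 fold changes and SEs, a score and p-values.

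By identifier, 76858 of 84226 transcripts had a match in GENCODE mouse release 21, which uses another build, so no genome coordinates are printed. The others held 1.63% to 2.35% of counts and were left out. Counts were summed per gene, rounded and tested in edgeR 4.0.16 (TMM, default filter, robust quasi-likelihood fit, Benjamini-Hochberg adjustment over all genes); the SE is the absolute change over the square root of F. limma 3.58.1 and DESeq2 1.42.0 served as alternatives. The edgeR test was also run on simulated data, where its share of false calls was above the nominal threshold. How far that share holds for these libraries was not tested. GC and length trends were splines with 5 degrees of freedom. Genes named were the 10 members and, per list, the smallest p each way and the highest mean CPM. Members and lists were chosen with earlier results of these data known. No pair of libraries was a repeat (chi-square per gene at least 3.17).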

Additional observations from a re-analysis of the deposited data

How the results depend on the processing

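The 22 alternatives for each member left Cdh1, Itgb1, Itga6, Ctnnb1 and Ctnna1 lower and called in all, with ranges of -0.50 to -0.25, -1.21 to -0.55, -1.04 to -0.68, -0.59 to -0.39 and -0.61 to -0.36. Itgav kept its call in 21, Ctnnd1 in 19 and Jup in 18, and the exceptions not given above are the replicate block combined with removal of the GC and length trend (Ctnnd1 at -0.097, Jup at 0.12) and, for Jup, the GC trend alone removed (0.053). The count of members higher was 0 with limma on log2(TPM + 1), with the GC trend removed, with the GC and length trend removed and with the replicate block and that trend removed. Members lower numbered 5 to 7 over all settings, with the 5 from the most abundant transcript alone. In that setting 5252 of 13051 genes were called in either direction, and with limma on log2(TPM + 1) 5518 of 13231. Epcam and Dag1 were called in 0 alternatives but crossed 0: Epcam was at -0.036 with limma on log2(TPM + 1), and Dag1 at 0.0041 with no low-count filter, at 0.13 with the GC and length trend removed and at 0.12 with the replicate block as well. Leaving out 1 library, or both of a number, gave -0.0098 to 0.080 for Epcam, -0.070 to 0.032 for Dag1 (above 0 in 5 of 9 such settings, among them 0.0038 without both libraries numbered 1 and 0.0041 without both numbered 3), 0.38 to 0.58 for Jup and 4611 to 7761 genes called in all; the lowest of these was without both libraries numbered 3. The replicate block changed no member's call and gave 7076 genes called against 6977; same-numbered libraries did not deviate together (correlations of 0.070, 0.15 and -0.010), and not every library correlated best with its own number. The log2 difference of the Ctnnb1 to Jup ratio was -1.07 to -0.83 over its alternatives, with an exact sign-flip p of 0.25 over the replicate numbers, the smallest that 3 pairs allow. Depth gave the members 128 to 6803 estimated counts per library, fewest for Itgav.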
